A study of Mus musculus with 54 samples.

Results

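The genes described here are 65 protein-coding cytochrome P450 genes of 14 mouse subfamilies, out of 54356 genes listed for each tissue. The rule that picks them uses gene name and gene type and no measured value: CYP2 genes other than CYP2A and CYP2B, and the CYP3A and CYP4 genes. The Cyp2c subfamily has 15 members, Cyp4f and Cyp3a 9 each, Cyp2d, Cyp2j and Cyp4a 8 each, and Cyp2e1, Cyp2f2, Cyp2r1, Cyp2s1, Cyp2u1, Cyp4b1, Cyp4v3 and Cyp4x1 are single. A further 27 entries whose names match are pseudogenes or other non-coding entries and were left out.

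RNA was sequenced from whole hearts and whole livers of male C57BL/6 mice that were 20 weeks old and ate a high-fat diet (HFD), which drew 42% of its energy from fat, 35% from carbohydrate and 23% from protein. MRPS12 is a protein of the decoding centre of the mitochondrial ribosome, and the mice carried either 2 wild-type copies of its gene (Mrps12+/+), 2 copies of an error-prone allele (Mrps12ep/ep) or 2 copies of a hyper-accurate allele (Mrps12ha/ha), with 3 mice per genotype and tissue. All 3 genotypes ate the HFD, the alleles are germline substitutions present in every cell, and the wild-type mice were litter-mates of the mutants. The study asked how altered fidelity of mitochondrial translation shapes the response of each tissue to the diet. The same wild-type mice served as controls for either mutant, which ties those comparisons together.

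Cytochrome P450 enzymes are haem proteins that insert an oxygen atom into small molecules. The CYP2 and CYP3A enzymes of the liver sit in the endoplasmic reticulum and oxidise drugs, steroids and other foreign or endogenous compounds, and many of their genes are switched on by the nuclear receptors CAR and PXR. CYP4 enzymes hydroxylate fatty acids and eicosanoids at the far end of the chain, and the Cyp4a genes are classical targets of the fatty acid receptor PPARA. In the liver several members are zonal (Cyp2e1 and Cyp2c29 around the central vein, Cyp2f2 around the portal vein) and some are sex-biased under growth hormone (Cyp2d9 and Cyp4a12a in males, the Cyp3a41 and Cyp3a44 genes in females). Outside the liver Cyp2j enzymes make epoxides of arachidonic acid, Cyp4b1 and Cyp2s1 are expressed in airway and other epithelia, and Cyp4f18 is a neutrophil enzyme that acts on leukotrienes.

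Values are normalized counts, that is reads per gene divided by the size factor of the library. Hearts held 11202866 to 51480271 reads on genes and livers 21238036 to 81518399, and the shallowest heart, Mrps12ha/ha mouse 2, was at 3.020 normalized counts per read. The tissue labels held: 18 hepatocyte markers summed to 7502293 to 9092119 in livers, and 13 ventricular and other cardiomyocyte markers to 2991159 to 4482913 in hearts. Several libraries stood apart. In livers, the summed level of 24 acute phase genes was 5318098 in Mrps12+/+ mouse 3 and 960768 to 1234554 in the other 8, that of 7 cholangiocyte markers was 12074 against 1372 to 2721, and a list of 13 skeletal muscle markers summed to 31185 and 40284 in Mrps12+/+ mice 1 and 2 and to 44.5 to 222 in the others. In hearts, 18 hepatocyte markers, among them albumin, varied 12.5-fold in sum, and 12 atrial cardiomyocyte markers ran from 6714 to 444400. The Mrps12 alleles are base substitutions, so the count of Mrps12 does not check the genotype.

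Members made up 1.31 to 2.05% of all normalized counts in livers and 0.0133 to 0.0213% in hearts. A gene was tested where its mean over the 9 mice of a tissue was at least 10, which held for 48 of the 65 members in livers and 30 in hearts. All 30 tested in hearts were also tested in livers, and 18 more were tested in livers alone. The remaining 17 were tested in neither tissue. These were Cyp2c65, Cyp2c66, Cyp2j7, Cyp2j8, Cyp2j11, Cyp2j12, Cyp2j13, Cyp3a16, Cyp3a41a, Cyp3a41b, Cyp3a44, Cyp3a57, Cyp4a29, Cyp4a30b, Cyp4f37, Cyp4f40 and Cyp4x1. Their highest value in any liver was 23.6, for Cyp3a57 in Mrps12+/+ mouse 3. Cyp2j7, Cyp4a30b and Cyp4f40 were at 0 in all 18 tissues. The female-biased Cyp3a16, Cyp3a41a, Cyp3a41b and Cyp3a44 all belong to the untested group, at 7.3 or less in every liver of these males, although only 0.1% and 4.1% of the 31-base words of Cyp3a41a and Cyp3a41b are unique to them in the transcriptome, so their reads cannot be assigned firmly.

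Levels of different genes were compared per kilobase of the longest coding transcript. In livers Cyp2e1, which oxidises ethanol and other small molecules, led with a mean of 179736 per kilobase, 39.2% of the summed level of all members. The next 5 were Cyp2d9 (29908), Cyp2d26 (28406), Cyp2c29 (24634), Cyp2f2 (23254) and Cyp2d10 (21526), and the ranges of these 5 over the 9 mice overlapped one another. The hearts had a different order. By mean, Cyp4b1 led with 664 per kilobase, 26% of the members' sum there, followed by Cyp2d22 at 531, Cyp2e1 at 308, Cyp4f13 at 202 and Cyp2u1 at 109. Over the 9 hearts Cyp4b1, Cyp2d22 and Cyp2e1 overlapped, at 441 to 969, 372 to 801 and 41.6 to 785 per kilobase. Their order did not hold in every heart. Heart and liver tables were normalized apart, so their levels are set side by side without a test.

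In livers, no member had an adjusted p under 0.05 in any of the 3 comparisons between genotypes (limma, Benjamini-Hochberg over 15314 genes). Over all genes tested, 0.00653% were called in each of the 3 comparisons. At an unadjusted p under 0.05 there were 14 of 48 members in Mrps12ha/ha against Mrps12+/+ livers, where 14.1% of all genes passed, 13 in Mrps12ep/ep against Mrps12+/+, where 9.74% passed, and 4 in Mrps12ha/ha against Mrps12ep/ep, where 8.62% passed. limma-voom on the recovered reads also called 0 members in each of the 3. In whole tissue, fewer cells of a type and less RNA per cell cannot be told apart, and this holds for every difference given here.

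The Mrps12ha/ha livers had a higher fitted mean than the Mrps12+/+ livers in 35 of 48 members and a lower one in 13, with a median log2 fold change of 0.46 beside -0.02 over all genes. In 13 members, 27.1%, every Mrps12ha/ha liver lay above every Mrps12+/+ liver, against 10% of all genes, and no member had the reverse order, against 9.81%. Without Mrps12+/+ mouse 3, the liver with high acute phase genes, the median was 0.26. The Mrps12ep/ep livers were higher than the Mrps12+/+ livers in 31 members and lower in 17, with a median of 0.18 beside -0.01, and the groups did not overlap in 7 members that were higher (6.49% of all genes) and 2 that were lower (6.28%). This median was 0.10 without Mrps12+/+ mouse 3, 0.11 without Mrps12ep/ep mouse 2 and 0.38 without Mrps12ep/ep mouse 1. Between the mutants 7 members were higher without overlap in Mrps12ha/ha livers (8.82% of all genes) and 0 lower (9.01%), with a median of 0.12, which was 0.04 without Mrps12ep/ep mouse 1.

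**Figure D1:**
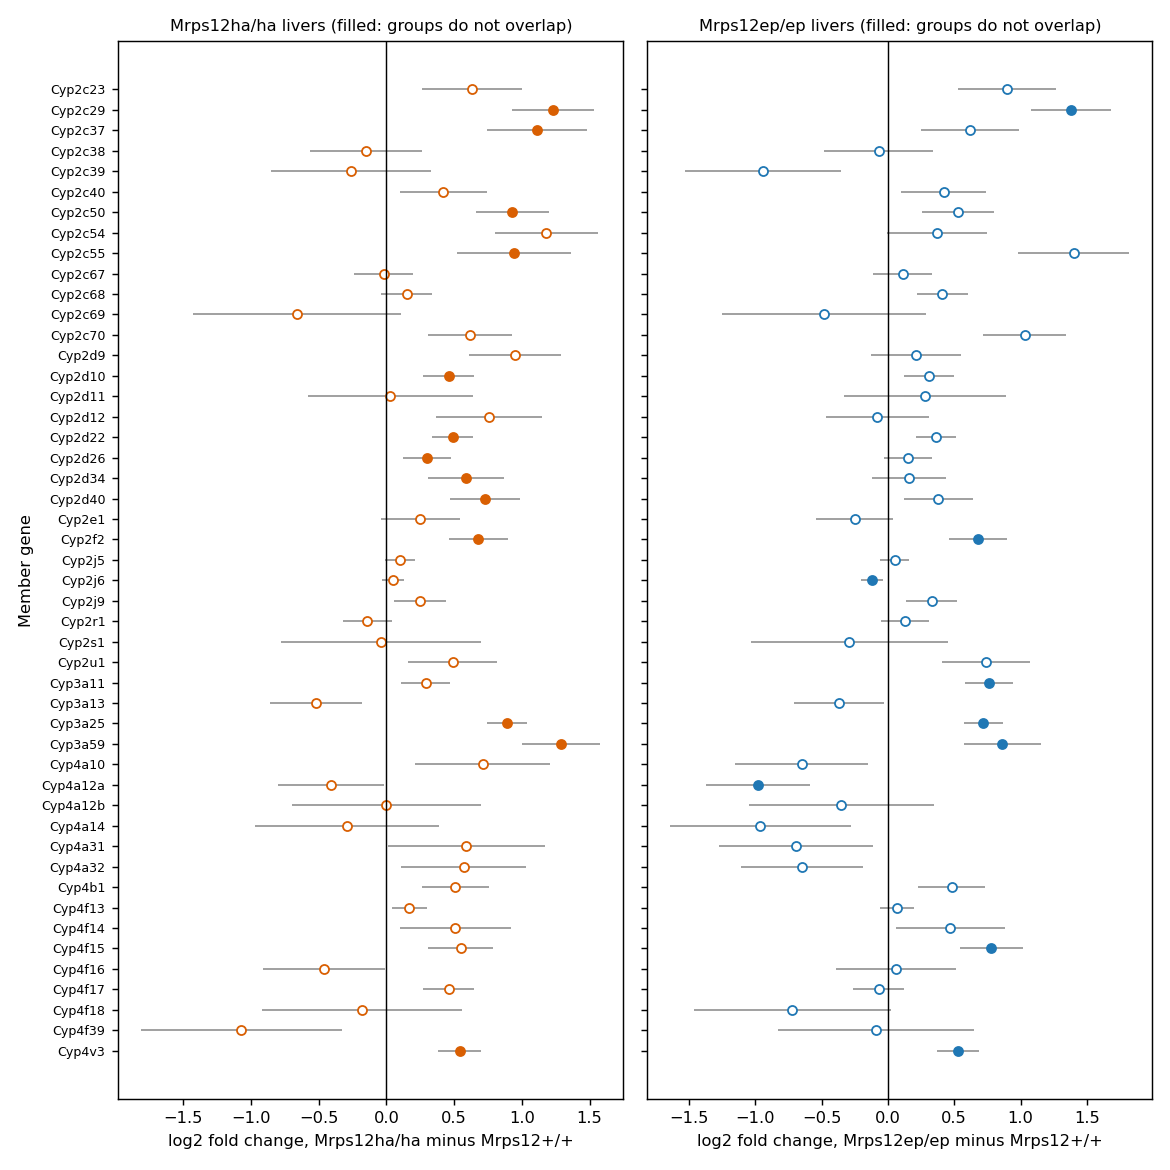
Log2 fold changes of the 48 members tested in livers, Mrps12ha/ha minus Mrps12+/+ (left) and Mrps12ep/ep minus Mrps12+/+ (right), with bars of 1 standard error from limma. Filled points are members whose groups of 3 mice do not overlap: 13 on the left, all to the right of 0, and 9 on the right, of which 7 are to the right of 0. None had an adjusted p under 0.05.

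The Cyp3a genes encode the main drug and steroid hydroxylases, and the smallest adjusted p among all members belonged to one of them. The subfamily lies on chromosome 5 of GRCm38 from 137892932 to 146113287. Cyp3a25 (ENSMUSG00000029630.15, chromosome 5, 145977194 to 146009618) held 10783, 13249 and 8929 normalized counts in the Mrps12+/+ livers, 18102, 19060 and 16526 in the Mrps12ep/ep livers and 22491, 18971 and 18911 in the Mrps12ha/ha livers. Every mutant liver lay above every wild-type liver. Its mean was 10987 ± 2167 in Mrps12+/+ and 20124 ± 2050 in Mrps12ha/ha livers (SD, n = 3), and the difference was 0.89 on the log2 scale (standard error 0.15, limma adjusted p = 0.0851). In Mrps12ep/ep livers the log2 fold change was 0.72 with an adjusted p of 0.277. Without Mrps12+/+ mouse 2 the first of these adjusted p-values was 0.0335, in a fit that called 0.588% of all genes.

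Cyp3a59 (ENSMUSG00000061292.10, chromosome 5, 146079257 to 146113287), the closest relative of Cyp3a25, was far lower, with the groups in the same order. It was at 243, 348 and 485 in Mrps12+/+ livers, 573, 888 and 486 in Mrps12ep/ep livers and 1009, 705 and 842 in Mrps12ha/ha livers. Both mutant groups lay above the wild type, Mrps12ep/ep mouse 3 only by 1 count in the rounded values. The log2 fold change was 1.29 (standard error 0.29, limma adjusted p = 0.132) in Mrps12ha/ha and 0.86 (adjusted p = 0.454) in Mrps12ep/ep livers. Of the 31-base words of Cyp3a25 41.2% also occur in Cyp3a59, and 43.5% the other way round, so reads of the pair can be split between them. Cyp3a59 took 2.2 to 5.15% of the sum of the pair in the 9 livers.

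The promoters of this pair are shown because they are nearly the same while the levels of the genes differ, that of Cyp3a57, an untested gene of the same cluster, because it holds the same hexamers, and that of Cyp2c29 because it had the largest difference among the abundant members. Each line gives the 250 bases before the start that RefSeq annotates on GRCm38.p6, 5′ to 3′ on the strand of the gene. Capitals mark AGGTCA and its reverse TGACCT, the hexamer that nuclear receptors of the retinoid X receptor group can bind, and TATAAA.
Cyp3a25: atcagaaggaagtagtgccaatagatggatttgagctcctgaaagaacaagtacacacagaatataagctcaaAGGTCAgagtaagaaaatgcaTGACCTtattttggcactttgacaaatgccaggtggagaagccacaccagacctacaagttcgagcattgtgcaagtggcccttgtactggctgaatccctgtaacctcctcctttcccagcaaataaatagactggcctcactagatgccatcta
Cyp3a59: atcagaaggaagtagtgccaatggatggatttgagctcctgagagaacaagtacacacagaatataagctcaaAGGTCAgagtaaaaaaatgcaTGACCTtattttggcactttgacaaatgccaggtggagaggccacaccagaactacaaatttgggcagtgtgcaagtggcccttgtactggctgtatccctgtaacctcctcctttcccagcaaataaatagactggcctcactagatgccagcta
Cyp3a57: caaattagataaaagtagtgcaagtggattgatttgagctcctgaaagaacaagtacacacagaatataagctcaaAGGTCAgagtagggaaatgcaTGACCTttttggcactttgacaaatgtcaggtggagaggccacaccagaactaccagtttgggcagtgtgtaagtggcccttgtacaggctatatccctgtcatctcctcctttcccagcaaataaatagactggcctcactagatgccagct
Cyp2c29: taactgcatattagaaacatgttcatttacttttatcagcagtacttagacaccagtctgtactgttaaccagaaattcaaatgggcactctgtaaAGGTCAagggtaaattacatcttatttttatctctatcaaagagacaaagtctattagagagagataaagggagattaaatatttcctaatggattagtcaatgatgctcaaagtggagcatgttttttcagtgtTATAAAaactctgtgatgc

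The Cyp3a25 window is chr5:146009618-146009867 (minus strand), that of Cyp3a59 chr5:146079008-146079257, that of Cyp3a57 chr5:145345019-145345268 and that of Cyp2c29 chr19:39286835-39287084, which lies inside the longer gene span that GENCODE gives. Over 250 bases Cyp3a25 and Cyp3a59 were identical at 239, or 95.6%. Cyp3a57 matched them at 63.9% and 67.5% of positions without gaps. In Cyp3a25 and Cyp3a59 the capitalised AGGTCA, which follows an A, begins 177 bases before the start and TGACCT 156 bases before it, and in Cyp3a57 they begin at 174 and 153. Cyp3a57 was at 0 to 23.6 normalized counts in livers and at 0 in every heart.

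A RefSeq promoter was found for 51 of the 65 members, with 58 sequences in all because 5 members have more than 1. AAGGTCA, searched on both strands and always containing an AGGTCA, was present in 8 of the 58, which belong to Cyp2c29, Cyp2c39, Cyp2f2, Cyp3a25, Cyp3a57, Cyp3a59 and Cyp4a29, and in 4.08% of all 32851 promoters of the same length. Overlapping windows of Cyp3a25 were counted apart, here and for AGGTCA. The Cyp2c39 hit was in chr19:39347096-39347345, upstream of the GENCODE span of the gene, which begins at 39510862. Its window beside that span held 0 copies of either motif. AGGTCA alone was in 12 of the 58 and in 14% of all, and TATAAA in 20 of the 58 and in 12.4% of all. The palindrome TTCNNNGAA, the core of a STAT site, was in 4 of the 58 and 7.02% of all. Direct repeats of AGGTCA with 1 or 4 bases between them were in 0 of the 58, and in 0.0335% and 0.0152% of all.

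Cyp3a11, the most abundant Cyp3a gene and the usual readout of PXR, behaved differently from Cyp3a25 in one respect. It was at 28813, 30579 and 39713 in Mrps12+/+ livers, 46884, 59419 and 60999 in Mrps12ep/ep livers and 49155, 36977 and 35469 in Mrps12ha/ha livers. The error-prone group stood highest and alone did not overlap the wild type. The log2 fold change was 0.76 (standard error 0.18, limma adjusted p = 0.345) for Mrps12ep/ep and 0.29 (adjusted p = 0.497) for Mrps12ha/ha, and between the mutants it was -0.47 with an adjusted p of 0.546. Cyp3a13 was at 17646 in Mrps12+/+ mouse 3 and at 5984 to 7726 in the other 8 livers, so that its mean of 10121 ± 6517 in Mrps12+/+ rests on the liver in which the acute phase genes were also high. The part of that liver's state in the value was not tested.

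**Figure D2:**
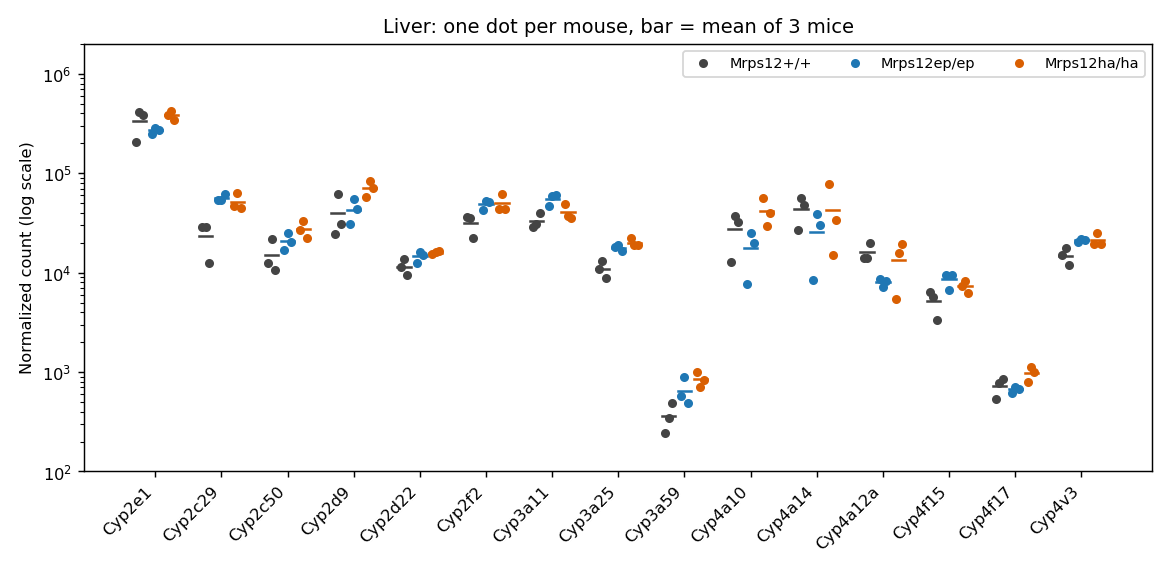
Normalized counts of 15 members in livers on a log axis, 1 dot per mouse and a bar for the mean of 3 mice. Cyp3a25, Cyp3a59, Cyp2c29, Cyp2f2 and Cyp4v3 have every mutant liver above every wild-type liver. Cyp3a11 and Cyp4f15 have only the Mrps12ep/ep livers above the wild type, and Cyp2c50 and Cyp2d22 only the Mrps12ha/ha livers. Cyp4a12a has the Mrps12ep/ep livers below the wild type. Cyp2e1, Cyp2d9, Cyp4a10 and Cyp4f17 separate the 2 mutants.

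The Cyp2c genes lie on chromosome 19 and encode epoxygenases and drug hydroxylases. All but Cyp2c23 lie together at 39007019 to 40187333, and Cyp2c23 is apart at 44005022 to 44029208. Of 13 tested, 9 had a positive log2 fold change in Mrps12ha/ha livers, with a median of 0.62, and 10 in Mrps12ep/ep livers, with a median of 0.42. Cyp2c29 (ENSMUSG00000003053.17, 39269405 to 39330713), a CAR-responsive gene of pericentral hepatocytes, was at 28544, 29006 and 12510 in Mrps12+/+ livers, 53853, 54044 and 62564 in Mrps12ep/ep livers and 46918, 62660 and 45196 in Mrps12ha/ha livers. All 6 mutant livers lay above all 3 wild-type livers, and the lowest value was in Mrps12+/+ mouse 3. The folds were 2.60 for Mrps12ep/ep and 2.34 for Mrps12ha/ha, with log2 fold changes of 1.38 and 1.23 (standard error 0.30 each, adjusted p = 0.299 and 0.149 from limma). With Mrps12+/+ mouse 3 left out, Cyp2c29 was called in Mrps12ep/ep livers (adjusted p = 0.0453), where 0.444% of all genes were.

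Cyp2c50 was at 12600, 21817 and 10559 in Mrps12+/+, 16917, 24903 and 20596 in Mrps12ep/ep and 27135, 32865 and 22325 in Mrps12ha/ha livers. Only the hyper-accurate group cleared the wild type, and by little, 22325 against 21817. Its log2 fold change was 0.93 (standard error 0.27, limma adjusted p = 0.195). With Mrps12+/+ mouse 2 left out, Cyp2c50 and Cyp3a25 were the 2 members called in Mrps12ha/ha livers, with an adjusted p of 0.049 for Cyp2c50. The related Cyp2c37, which shares 34.2% of its 31-base words with Cyp2c50, had a log2 fold change of 1.11 (adjusted p = 0.241), and Cyp2c55 one of 0.94 (adjusted p = 0.356).

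Cyp2c54 separated the mutants from each other. It was at 2407, 4947 and 1603 in Mrps12+/+, 3295, 3268 and 3857 in Mrps12ep/ep and 4603, 9046 and 5362 in Mrps12ha/ha livers, a log2 fold change of 0.81 between the mutants (adjusted p = 0.607 from limma). Of the 31-base words of Cyp2c54, 31.4% also occur in Cyp2c50. Cyp2c70, which makes the muricholic acids of mouse bile, had a larger difference in the error-prone livers, 1.03 on the log2 scale (adjusted p = 0.42), than in the hyper-accurate ones, 0.62 (adjusted p = 0.406), but its groups overlapped and the mutants did not differ past the test (-0.42, adjusted p = 0.768). Cyp2c23, the gene also known as Cyp2c44 and a renal and hepatic epoxygenase, ran from 4409 to 18258 in livers with log2 fold changes of 0.90 and 0.63 for Mrps12ep/ep and Mrps12ha/ha. The female-biased Cyp2c40 and Cyp2c69 were low, at 91.3 to 233 and 4.2 to 44.1, and 27.4% and 35.1% of their 31-base words are unique to them. Of the words of Cyp2c67 and Cyp2c68, 55.5% and 53.6% also occur in Cyp2c40, so reads of this group cannot be assigned firmly. Of the rest, Cyp2c67 ran from 8597 to 16073, Cyp2c68 from 5078 to 10247, Cyp2c38 from 2016 to 6816 and Cyp2c39 from 36.1 to 252 over the 9 livers, and the genotypes overlapped in every comparison of these 4.

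Cyp2d genes encode drug-oxidising enzymes and are clustered on chromosome 15 (82370527 to 82794294). All 8 were tested and all 8 had a positive log2 fold change in Mrps12ha/ha livers, between 0.03 and 0.95, with 5 of the 8 above the wild type without overlap, as 10% of all genes were. These were Cyp2d10 (0.46), Cyp2d22 (0.49), Cyp2d26 (0.30), Cyp2d34 (0.59) and Cyp2d40 (0.73). Among the 5, the adjusted p was smallest for Cyp2d22, at 0.209. In Mrps12ep/ep livers 7 of 8 were positive, between -0.08 and 0.38 over all 8, and 0 were free of overlap, against 6.49% of all genes higher and 6.28% lower. Cyp2d11 (7.5 to 27 over the 9 livers) and Cyp2d12 (33.6 to 117) were the rare members.

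Cyp2d9, the most abundant Cyp2d gene and a male-specific steroid hydroxylase, was at 24691, 62624 and 31148 in Mrps12+/+, 30997, 54929 and 43430 in Mrps12ep/ep and 57999, 84590 and 70419 in Mrps12ha/ha livers. The hyper-accurate livers lay above the error-prone ones, while Mrps12+/+ mouse 2 fell among the former. Between the mutants the log2 fold change was 0.74 (standard error 0.34, limma adjusted p = 0.598), and against the wild type 0.95 (adjusted p = 0.27).

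Cyp2e1, the highest member, separated the mutants but not either of them from the wild type. It was at 208604, 414133 and 382915 in Mrps12+/+, 249744, 286813 and 272784 in Mrps12ep/ep and 384431, 421890 and 343784 in Mrps12ha/ha livers. The wild-type livers overlapped both mutant groups. The difference between the mutants was 0.50 on the log2 scale (standard error 0.29, limma adjusted p = 0.684).

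Cyp2f2 oxidises naphthalene and marks periportal hepatocytes in the liver and club cells in the lung. Its gene lies 1.61 Mb from Mrps12 on chromosome 7 (27119909 to 27133660). It was at 36189, 35374 and 22214 in Mrps12+/+, 42746, 52757 and 51979 in Mrps12ep/ep and 43643, 61986 and 43638 in Mrps12ha/ha livers. Both mutant groups were above the wild type by the same log2 fold change of 0.68 (standard error 0.22), with adjusted p-values of 0.439 and 0.23 from limma, and the difference between the mutants was 0.00 (adjusted p = 0.998). Anything inherited with the Mrps12 allele on this chromosome cannot be told apart from the allele itself.

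The Cyp2j genes, which encode epoxygenases of arachidonic acid, varied little in livers. Cyp2j5, the most abundant, was at 32965, 35902 and 34015 in Mrps12+/+, 34346, 34511 and 37670 in Mrps12ep/ep and 35365, 40005 and 34883 in Mrps12ha/ha livers, with log2 fold changes of 0.05 and 0.10 (standard error 0.11). Its highest liver was 1.21 times its lowest. Cyp2j6 was at 4025, 4086 and 4102, at 3576, 3789 and 3893 and at 3896, 4186 and 4583 in the same order. It lay lower in every Mrps12ep/ep liver than in the other 2 groups, by 0.12 against the wild type on the log2 scale (adjusted p = 0.657 from limma). Cyp2j9 was at 651, 708 and 550, at 884, 969 and 584 and at 850, 730 and 689, with overlap in every comparison.

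The single genes of the CYP2 family were lower. Cyp2r1, a vitamin D 25-hydroxylase, was at 623, 533 and 417 in Mrps12+/+, 516, 643 and 548 in Mrps12ep/ep and 393, 538 and 495 in Mrps12ha/ha livers. Cyp2u1, a fatty acid hydroxylase, was at 1154, 1543 and 555, at 1873, 1787 and 1383 and at 1140, 1623 and 1480, a log2 fold change of 0.74 in Mrps12ep/ep livers (adjusted p = 0.508 from limma). Cyp2s1 was at 52.5, 59 and 8.2, at 22, 48.4 and 13.3 and at 35.7, 21.2 and 32.2. For all 3 genes the groups overlapped in every comparison of livers.

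The Cyp4a genes formed the only subfamily of several members in which the sign was the same for all tested members in both comparisons that involve the error-prone livers. All 6 had a negative log2 fold change in Mrps12ep/ep against Mrps12+/+ livers, from -0.98 to -0.35 with a median of -0.67, and all 6 a positive one in Mrps12ha/ha against Mrps12ep/ep, from 0.35 to 1.37 with a median of 0.95. Between Mrps12ha/ha and Mrps12+/+ livers 3 were positive and 3 negative, with a median of 0.29. These comparisons share the Mrps12ep/ep livers and none of the 6 passed the test in any. For Cyp4a12b both signs rest on Mrps12ep/ep mouse 2. It was at 1914, 2332 and 2397 in Mrps12+/+, 2785, 645 and 2872 in Mrps12ep/ep and 750, 3680 and 3865 in Mrps12ha/ha livers. The 6 are also not independent. Of the 31-base words of Cyp4a12a 62.2% occur in Cyp4a12b, and of those of Cyp4a32 49.2% occur in Cyp4a10.

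Cyp4a10, the omega-hydroxylase most used as a readout of PPARA, was at 12788, 37071 and 32087 in Mrps12+/+, 7761, 25164 and 19979 in Mrps12ep/ep and 55924, 29830 and 40256 in Mrps12ha/ha livers. The mutants did not overlap, and the lowest wild-type liver lay among the error-prone ones. Between the mutants the fold was 2.58, a log2 fold change of 1.37 (standard error 0.50, limma adjusted p = 0.52). Cyp4a32, which shares sequence with Cyp4a10, was at 804, 1687 and 2270, at 458, 1098 and 1578 and at 2402, 2174 and 1950, a log2 fold change of 1.23 between the mutants (adjusted p = 0.531). In the sum of the pair, of which Cyp4a32 took 4.12 to 7.32%, the mutants were at 8219 to 26262 and 32004 to 58325.

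Cyp4a14, another PPARA target, varied widely. It was at 26674, 56688 and 47802 in Mrps12+/+, 8430, 39192 and 29971 in Mrps12ep/ep and 78644, 14932 and 33923 in Mrps12ha/ha livers, 9.33-fold from lowest to highest. Within every genotype the mice ranked as they did for Cyp4a10. The groups overlapped in all 3 comparisons, with a log2 fold change of -0.96 in Mrps12ep/ep livers (adjusted p = 0.654 from limma). The male-biased Cyp4a12a was at 13928, 14195 and 19788, at 8651, 7124 and 8243 and at 5486, 15740 and 19286. Every error-prone liver lay below every wild-type one (-0.98 on the log2 scale, standard error 0.39, adjusted p = 0.481). Cyp4a12b is a close paralogue next to it, and the sum of the pair was 15842, 16527 and 22185 in Mrps12+/+, 11436, 7769 and 11115 in Mrps12ep/ep and 6236, 19419 and 23151 in Mrps12ha/ha livers, with the same separation of the error-prone livers from the wild type. Cyp4a31 ran from 205 to 1523 with overlap in all 3 comparisons.

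Cyp4f enzymes hydroxylate leukotrienes and long fatty acids. Of 7 tested in livers, 4 were positive and 3 negative in each of the 3 comparisons. Cyp4f14, the most abundant, was at 10732, 9099 and 3242 in Mrps12+/+, 10872, 7201 and 10764 in Mrps12ep/ep and 7178, 12502 and 10104 in Mrps12ha/ha livers, with overlap throughout. Cyp4f15 was at 6372, 5665 and 3366, at 9428, 6764 and 9586 and at 7312, 8316 and 6290. The error-prone livers cleared the wild type by a log2 fold change of 0.78 (standard error 0.24, limma adjusted p = 0.431). Cyp4f17 was at 533, 772 and 846, at 622, 710 and 681 and at 797, 1131 and 1012. The hyper-accurate livers cleared the error-prone ones by 0.53 on the log2 scale (adjusted p = 0.509). Cyp4f13 (2332 to 3294), Cyp4f16 (48.5 to 151), Cyp4f18 (10.8 to 68.6) and Cyp4f39 (4.8 to 30.8) overlapped in every comparison of livers.

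Cyp4v3, a fatty acid hydroxylase whose human counterpart is mutated in a retinal dystrophy, stood between the abundant and the rare members. It was at 15034, 17759 and 11869 in Mrps12+/+, 20582, 21661 and 21406 in Mrps12ep/ep and 19552, 25236 and 19564 in Mrps12ha/ha livers. Both mutants cleared the wild type, by log2 fold changes of 0.53 and 0.54 (standard error 0.16, adjusted p = 0.42 and 0.203 from limma), and did not differ from each other past the test (0.01, adjusted p = 0.995). Cyp4b1 was at 533, 466 and 289, at 598, 496 and 664 and at 697, 453 and 664, and the groups overlapped. Cyp4x1 had 0 to 11.6 in any liver.

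In hearts the members fell into 2 sets when the heart mean was set beside the liver mean, a division made after the values were seen. For 19 of the 30 tested members the heart mean was 0.112 to 0.229% of the liver mean, and albumin, which cardiac cells do not make, had 0.109%. For the other 11 the heart mean was 1.25 to 300.0% of the liver mean. The 11 were Cyp2d22, Cyp2j6, Cyp2j9, Cyp2s1, Cyp2u1, Cyp4b1, Cyp4f13, Cyp4f16, Cyp4f17, Cyp4f18 and Cyp4v3. Since the tables were normalized apart, the percentages describe an order and not a calibrated ratio.

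**Figure D3:**
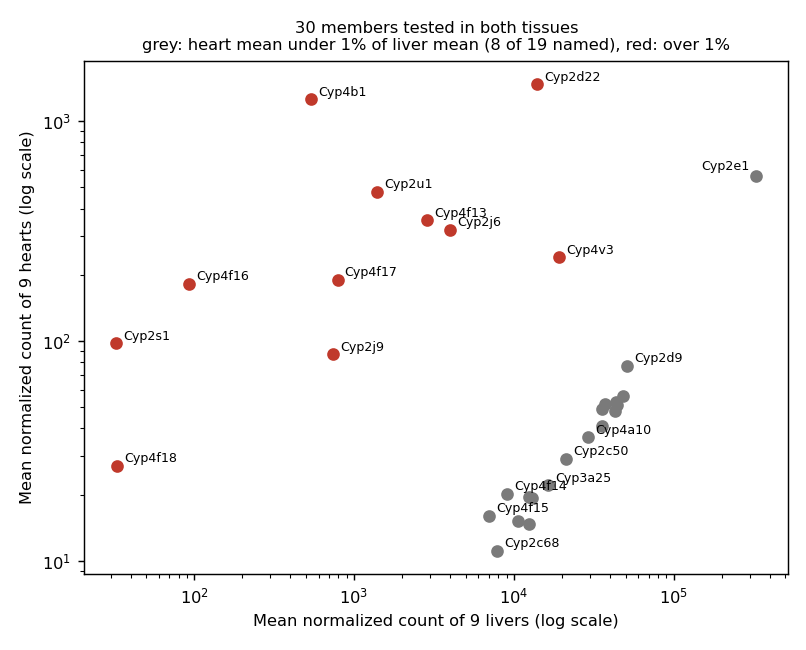
Mean normalized count of 9 hearts against that of 9 livers for the 30 members tested in both tissues, both axes on a log scale. The 19 grey members lie in a narrow band at 0.112 to 0.229% of the liver mean, and the 11 red members lie above it.

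Most of the 19 members of the first set had their highest values in the hearts with the most hepatocyte transcripts. The summed level of 18 hepatocyte markers was 21778, 6713 and 10265 in Mrps12+/+ hearts, 18223, 2476 and 1815 in Mrps12ep/ep hearts and 3519, 22657 and 6726 in Mrps12ha/ha hearts, and none of the 18 was at 0 in all hearts. The 3 highest hearts, Mrps12+/+ mouse 1, Mrps12ep/ep mouse 1 and Mrps12ha/ha mouse 2, were also the 3 highest for 14 of the 19 members (all but Cyp2c67, Cyp2c70, Cyp4a10, Cyp4a14 and Cyp4f15) and for 0 of the 11 others, against 3.95% of all genes tested in hearts. Cyp2e1 was at 1438, 470 and 755 in Mrps12+/+, 931, 268 and 76.3 in Mrps12ep/ep and 114, 812 and 224 in Mrps12ha/ha hearts. Its high values were in the same 3 hearts and in Mrps12+/+ mouse 3. Cyp2d9 was at 182, 49.3 and 59.7, at 207, 9.9 and 7.3 and at 14.7, 136 and 27.7. The part of the hepatocyte transcripts in these values was not tested.

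**Figure D4:**
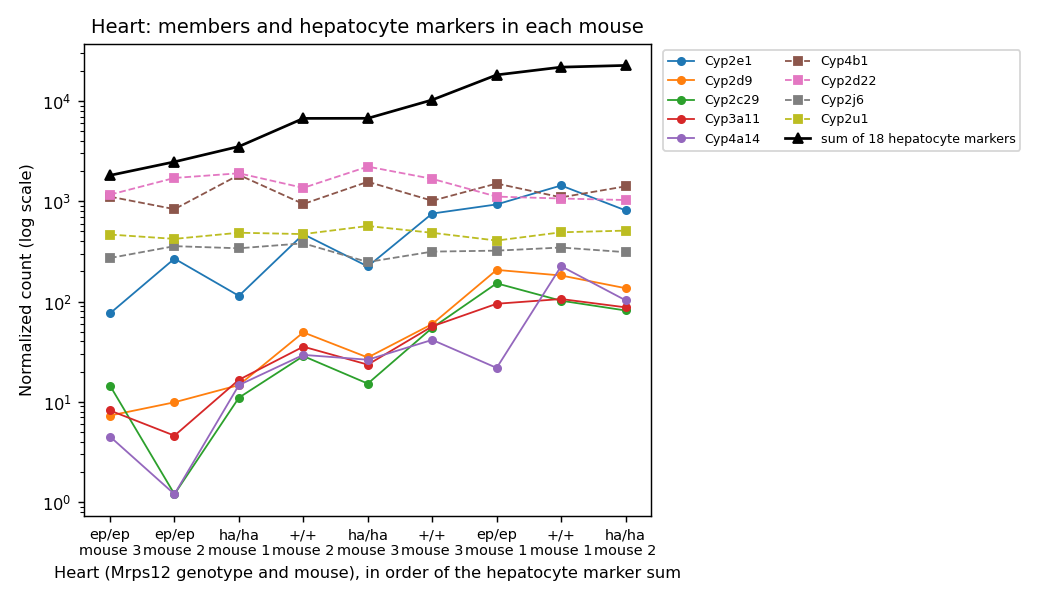
Normalized counts (log scale) in each of the 9 hearts, ordered by the sum of 18 hepatocyte markers (black). Cyp2e1, Cyp2d9, Cyp2c29, Cyp3a11 and Cyp4a14 (solid lines) are highest in the hearts at the right, except Cyp4a14 in Mrps12ep/ep mouse 1, while Cyp4b1, Cyp2d22, Cyp2j6 and Cyp2u1 (dashed) vary 1.4- to 2.2-fold over the hearts without that order.

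Other liver genes of this set had the same highest hearts. Cyp2c29 was at 102, 28.6 and 54.7 in Mrps12+/+, 152, 1.2 and 14.5 in Mrps12ep/ep and 11, 81.5 and 15.2 in Mrps12ha/ha hearts. Cyp3a11 was at 106, 35.5 and 56.6, at 95.1, 4.6 and 8.2 and at 16.6, 87.6 and 23.5, and Cyp2f2 at 102, 45 and 18.9, at 162, 30.2 and 3.6 and at 18.4, 69.5 and 24.2. In each genotype the highest heart for these 3 genes was the one with the highest marker sum. Of the 19 members 5 had a heart at 0, and over the rest the highest heart was 5.29 to 187.0 times the lowest.

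No member was called in hearts either (limma, Benjamini-Hochberg over 16057 genes), and limma-voom called 0 as well. Of all genes, 0.0311% were called between Mrps12ha/ha and Mrps12+/+, 0% between Mrps12ep/ep and Mrps12+/+ and 0.0249% between the mutants. At an unadjusted p under 0.05 there were 3, 2 and 6 of 30 members in the same order, where 19.7%, 1.69% and 17.9% of all genes passed. In Mrps12ha/ha hearts 3 members were higher than in Mrps12+/+ hearts without overlap (11.1% of all genes) and 1 lower (10%). In Mrps12ep/ep hearts 1 was higher (4.4%) and 3 lower (3.64%), and between the mutants 3 were higher (8.77%) and 1 lower (7.82%) in Mrps12ha/ha. The median log2 fold changes of the 30 were -0.40, -1.17 and 0.56, beside -0.02, -0.01 and -0.02 over all genes. For the 19 members of the first set the medians were -0.56, -1.85 and 1.30, and for the 11 others 0.28, -0.01 and 0.24. Single hearts moved these medians widely, in either direction. Over the fits that leave out 1 heart, the first ran from -0.99 (without Mrps12ha/ha mouse 2) to -0.00 (without Mrps12+/+ mouse 1), the second from -2.03 (without Mrps12ep/ep mouse 1) to -0.50 (without Mrps12ep/ep mouse 2), and the last from 0.22 (without Mrps12ep/ep mouse 2) to 1.51 (without Mrps12ep/ep mouse 1).

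Cyp2s1 (ENSMUSG00000040703.11, chromosome 7, 25802475 to 25816913), an enzyme of epithelia that acts on retinoids and is induced through the aryl hydrocarbon receptor, had the largest difference of any member between the hyper-accurate hearts and either other group. It was at 47.4, 194 and 102 in Mrps12+/+, 37.6, 284 and 178 in Mrps12ep/ep and 20.2, 12.1 and 4.1 in Mrps12ha/ha hearts. All 3 hyper-accurate hearts lay below all 6 others, at few reads. Over the 9 hearts the recovered reads of Cyp2s1 ran from 4 to 489. The mean was 114 ± 74 in Mrps12+/+ and 12.1 ± 8.05 in Mrps12ha/ha hearts (SD, n = 3), 8.82-fold lower on the log2(value + 1) scale, a log2 fold change of -3.14 (standard error 0.82, limma adjusted p = 0.191). Against Mrps12ep/ep it was -3.48 (adjusted p = 0.227). The exact two-sided permutation p was 0.1 for both, the smallest that 3 against 3 mice allow.

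The 4 hearts highest in Cyp2s1 (mice 2 and 3 of Mrps12+/+ and of Mrps12ep/ep) were also the 4 highest in atrial cardiomyocyte markers and in mesothelial markers. The atrial sum was 13252, 198165 and 146671 in Mrps12+/+, 6714, 444400 and 113754 in Mrps12ep/ep and 9484, 11736 and 15537 in Mrps12ha/ha hearts. The mesothelial sum of 9 genes was 940, 2083 and 1430, then 683, 3609 and 1645, then 552, 450 and 323. In the Mrps12+/+ and Mrps12ep/ep hearts with low atrial sums, Cyp2s1 was at 47.4 and 37.6 and the mesothelial sum at 940 and 683. The 3 hyper-accurate hearts were lower in Cyp2s1 and in the mesothelial sum. The 12 markers of club and other airway cells summed to 412, 655 and 665, then 414, 876 and 488, then 526, 399 and 667, and 3 of the 4 highest hearts were those of Cyp2s1. Of these 12, 4 were at 0 in every heart, among them Scgb1a1, which defines club cells. Only 2 reached a mean of 10 in hearts, Cbr2 and Aldh3a1, so the sum rests mainly on them. The part of atrial, mesothelial or airway transcripts in the Cyp2s1 difference was not tested. Cyp2s1 lies 2.92 Mb from Mrps12, so the point made for Cyp2f2 holds here too.

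**Figure D5:**
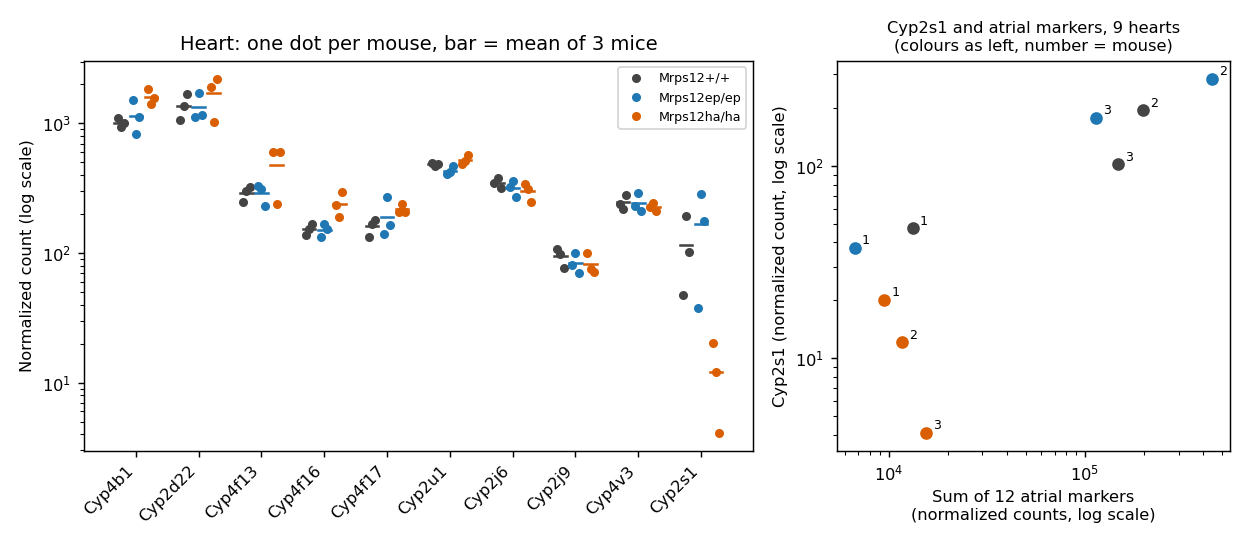
Left, normalized counts (log scale) of 10 members in hearts, 1 dot per mouse and a bar for the mean of 3 mice. Right, Cyp2s1 against the sum of 12 atrial markers in the 9 hearts, both on log scales. The 3 Mrps12ha/ha hearts are lowest in Cyp2s1 (4.1 to 20.2) and lie with 1 Mrps12+/+ and 1 Mrps12ep/ep heart at low atrial sums.

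Cyp4b1 had the highest mean per kilobase of the members in hearts, and it is expressed in lung, kidney and endothelium. It was at 1095, 940 and 1013 in Mrps12+/+, 1504, 835 and 1112 in Mrps12ep/ep and 1833, 1410 and 1566 in Mrps12ha/ha hearts. The hyper-accurate hearts cleared the wild type, while the highest error-prone heart fell among them. The mean was 1016 ± 77.9 against 1603 ± 214 (SD, n = 3), or 0.65 on the log2 scale (standard error 0.20, limma adjusted p = 0.209). Endothelial markers, 15 genes, summed to 80212 to 92320 in Mrps12+/+, 84578 to 107509 in Mrps12ep/ep and 87450 to 147433 in Mrps12ha/ha hearts, and their part in the Cyp4b1 difference was not tested.

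Cyp4f16 was at 138, 154 and 167 in Mrps12+/+, 134, 169 and 153 in Mrps12ep/ep and 236, 190 and 296 in Mrps12ha/ha hearts. The hyper-accurate hearts lay above all 6 others, by 0.63 and 0.65 on the log2 scale (standard error 0.20, adjusted p = 0.21 and 0.238 from limma). Cyp4f17 was at 134, 167 and 181, at 141, 269 and 164 and at 206, 239 and 208, with a log2 fold change of 0.44 against the wild type (adjusted p = 0.318). Cyp4f13, the most abundant Cyp4f gene in hearts, was at 247, 300 and 321, at 330, 311 and 232 and at 602, 239 and 604. Mrps12ha/ha mice 1 and 3 had the highest values and mouse 2, the shallowest library, fell within the other groups. Its log2 fold change was 0.62 (standard error 0.34, adjusted p = 0.308). Cyp4f18 was at 17.2, 18.2 and 16.4, at 21.8, 24.9 and 52.7 and at 27.6, 18.1 and 47, higher in every Mrps12ep/ep than in every Mrps12+/+ heart at few reads (0.79, adjusted p = 1). The 11 neutrophil markers summed to 80.3 to 604 in hearts.

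Mrps12ha/ha mouse 2 decided the calls in hearts. Without it, 4 members passed 0.05 against Mrps12+/+ hearts, namely Cyp2s1 (adjusted p = 0.0399), Cyp4b1 (0.0391), Cyp4f13 (0.00654) and Cyp4f16 (0.0172) from limma, and 3 passed against Mrps12ep/ep hearts, namely Cyp2s1 (0.0317), Cyp4f13 (0.00761) and Cyp4f16 (0.0189). In the same fits 27% and 23.2% of all genes passed, so these counts of members were not above the background. The remaining 2 Mrps12ha/ha hearts had hepatocyte marker sums of 3519 and 6726, against 22657 in mouse 2.

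Several members differed little between hearts. Cyp2u1 was at 491, 471 and 485 in Mrps12+/+, 406, 422 and 466 in Mrps12ep/ep and 486, 510 and 567 in Mrps12ha/ha hearts, lowest in the error-prone group without overlap, by 0.16 against the wild type and 0.27 against the hyper-accurate hearts on the log2 scale (adjusted p = 1 and 0.274 from limma). Cyp2d22, second by mean per kilobase, varied more, at 1066, 1362 and 1675, at 1114, 1710 and 1165 and at 1903, 1030 and 2218. Mrps12ha/ha mice 1 and 3 had its highest values and mouse 2, the shallowest library, its lowest. The groups overlapped in every comparison, with adjusted p-values for Mrps12ha/ha of 0.59 against Mrps12+/+ and 0.551 against Mrps12ep/ep from limma. With array weights the latter was 0.0111, in a fit that called 6314 of all genes. Cyp2j6 was at 346, 381 and 315, at 322, 357 and 272 and at 340, 311 and 248, and Cyp2j9 at 108, 98.6 and 76.7, at 80.2, 100 and 69.9 and at 101, 75.5 and 71.2. Cyp4v3 was at 238, 220 and 282, at 230, 290 and 213 and at 226, 245 and 212. None of these last 3 differed by more than 0.22 on the log2 scale between any genotypes.

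All 3 Cyp4a genes tested in hearts were at 0.126 to 0.156% of their liver mean. Cyp4a10 and Cyp4a14 did not share their 3 highest hearts with the hepatocyte markers. Cyp4a10 was at 125, 36.3 and 19.5 in Mrps12+/+, 15.8, 2.3 and 13.6 in Mrps12ep/ep and 27.6, 60.4 and 27 in Mrps12ha/ha hearts. The error-prone hearts lay below both other groups, by 2.30 against the wild type and 1.97 against the hyper-accurate hearts on the log2 scale (adjusted p = 1 and 0.26 from limma). Cyp4a14 was at 225, 29.4 and 41.5, at 21.8, 1.2 and 4.5 and at 14.7, 103 and 26.3, with a log2 fold change of -3.35 in Mrps12ep/ep hearts (adjusted p = 1). Mrps12ep/ep mouse 1 had a hepatocyte marker sum of 18223, among the highest 3, with 15.8 of Cyp4a10 and 21.8 of Cyp4a14. In livers the lowest values of these 2 genes, 7761 and 8430, were also in the Mrps12ep/ep group. The part of hepatocyte transcripts in these heart values was not tested. Cyp4a12a was at 45.6, 7.8 and 20.1, at 22.8, 0 and 1.8 and at 3.7, 66.4 and 7.6.

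The remaining named genes were near the limit of detection in hearts. Cyp2r1 was at 6, 6.9 and 3.8, at 9.9, 9.3 and 7.3 and at 1.8, 21.1 and 4.1 in the order of genotypes above, and Cyp4x1 at 0.9 to 4.5, so neither was tested. In all, 14 of the 65 members were at 0 in every heart, among them 5 Cyp3a and 3 Cyp2j genes, and 4 were at 0 in every liver. A count of 0 in these libraries allows up to 3 reads, a limit that covers counting error only.

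The genes that act with or control these enzymes were described by lists, and no gene of the 9 lists had an adjusted p under 0.05 in any comparison. Of 25 regulators of P450 genes, all tested in livers, 9 were higher and 3 lower without overlap in Mrps12ha/ha than in Mrps12+/+ livers, where 10% and 9.81% of all genes were, and the median log2 fold change was 0.21 beside -0.02 over all genes. In Mrps12ep/ep livers 3 were higher and 1 lower (6.49% and 6.28% of all genes), with a median of 0.02. Foxa2, a forkhead factor of hepatocytes, was at 814, 1098 and 929 in Mrps12+/+, 1243, 1154 and 1616 in Mrps12ep/ep and 1761, 2749 and 2063 in Mrps12ha/ha livers, with a log2 fold change of 1.19 for the last (adjusted p = 0.0722 from limma). Cebpa, another hepatocyte factor, was at 8165, 12005 and 7653, at 10501, 11769 and 13361 and at 16189, 20126 and 18358 in livers (adjusted p = 0.0935 for the hyper-accurate group). Ahr, the receptor that induces Cyp1 genes and Cyp2s1, had -1.41 in livers of the same genotype (adjusted p = 0.111 from limma). In its hearts, where Cyp2s1 was low, Ahr had 1.26 (adjusted p = 0.17 from limma). The part of Ahr in the level of Cyp2s1 was not tested.

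The 26 PPARA targets that are not P450 genes are given beside the Cyp4a genes. In Mrps12ha/ha against Mrps12ep/ep livers 8 were higher and 0 lower without overlap (8.82% and 9.01% of all genes), with a median of 0.33, and in Mrps12ep/ep against Mrps12+/+ livers 0 were higher and 3 lower (6.49% and 6.28%), with a median of -0.30. The 3 lower were Ucp3, Pdk4 and Cpt1b, which muscle expresses too, and skeletal muscle markers were high in 2 of the Mrps12+/+ livers, whose part was not tested. Against Mrps12+/+ the Mrps12ha/ha livers had 2 higher and 1 lower (10% and 9.81% of all genes) and a median of -0.05. In hearts the 25 tested had medians of -0.31, -0.31 and 0.15 for Mrps12ha/ha and Mrps12ep/ep against Mrps12+/+ and for the mutants. Angptl4, a lipase inhibitor and PPAR target, was at 533, 305 and 635, at 542, 495 and 460 and at 1195, 1235 and 2095 in hearts, a log2 fold change of 1.63 in Mrps12ha/ha (adjusted p = 0.144 from limma).

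Zonal lists include members, which were counted with them. Of 23 pericentral hepatocyte genes, 5 of them members, 10 were higher and 2 lower without overlap in Mrps12ha/ha than in Mrps12+/+ livers (10% and 9.81% of all genes), with a median of 0.38, and 3 and 1 in Mrps12ep/ep livers (6.49% and 6.28%), with a median of 0.04. Of 18 periportal genes, with Cyp2f2 as the only member, 3 and 1 were so in Mrps12ha/ha livers (median 0.29) and 7 and 0 in Mrps12ep/ep livers (median 0.70), while between the mutants 0 were higher and 11 lower in Mrps12ha/ha (median -0.53), where 8.82% and 9.01% of all genes were. Cyp2f2 itself was at the same level in both mutants. Among the 26 targets of CAR, PXR and AHR outside the members, 24 were tested in livers. In Mrps12ha/ha livers 4 were higher and 1 lower without overlap (10% and 9.81% of all genes). In Mrps12ep/ep livers 3 were higher and 1 lower (6.49% and 6.28%), and the median was 0.12 in both. Cyp2a5, a coumarin hydroxylase, was at 20144, 19055 and 9317 in Mrps12+/+, 33919, 38595 and 47736 in Mrps12ep/ep and 53451, 53279 and 43826 in Mrps12ha/ha livers. Every mutant liver lay above every wild-type one, with log2 fold changes of 1.38 for Mrps12ep/ep and 1.71 for Mrps12ha/ha (adjusted p = 0.269 and 0.0722 from limma). Cyp2a5 belongs to the Cyp2a and Cyp2b cluster near Mrps12, so the point made for Cyp2f2 holds for it too.

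Among the lists of growth hormone dependent genes, the male-biased one holds Cyp2d9, Cyp4a12a and Cyp4a12b and the female-biased one 6 members. The 20 male-biased genes had a median of 0.45 in Mrps12ha/ha and 0.18 in Mrps12ep/ep livers against Mrps12+/+. Without overlap, 1 was higher and 0 lower in the first and 1 and 1 in the second. For each list of this paragraph, the shares of all genes to set beside are 10% higher and 9.81% lower in Mrps12ha/ha livers. In Mrps12ep/ep livers these shares are 6.49% and 6.28%. Of the 24 female-biased genes 16 were tested in livers, with medians of -0.16 and -0.12 but 4 higher and 0 lower without overlap in Mrps12ha/ha livers, so that median and count differ in sign. The 10 partner genes of P450 enzymes (the electron donors, haem supply and epoxide hydrolases) had medians of 0.16 and 0.02 in livers, with 2 and 0 higher without overlap and 0 lower. The 24 acute phase genes had medians of -0.85 and -0.61, with 6 and 3 lower without overlap and 0 higher, and their high level in Mrps12+/+ mouse 3 enters both values.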

How the data were processed

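Total RNA of hearts and livers was sequenced in 54 libraries, with 3 technical repeats per mouse and tissue. Per the submitters' processing notes and the methods, the authors trimmed reads (Trim Galore 0.4.1, cutadapt 1.18, FastQC 0.11.8), quantified them with Salmon 1.1.0 against GENCODE M21 on GRCm38.p6 and normalised with DESeq2. The methods speak of pooling independent replicates, while the tables hold 1 pooled column for each sample number, and the labels list 3 technical libraries under each number. The columns were therefore read as 1 mouse each, and n = 3 rests on that reading. The deposited values are counts per gene divided by size factors and are treated as a score, because they are no longer raw counts. Low values, up to 20 reads, were whole multiples of 1 read within 0.1 read, from which the reads per mouse were recovered. The authors' own tables of fold changes and p-values were not used.

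Genes averaging 10 or more across the 9 mice of a tissue entered the test, on log2(value + 1) in limma 3.58.1 (R 4.3.3), with the 3 genotypes of a tissue in 1 fit and Benjamini-Hochberg adjustment over all genes tested, at 0.05. Folds on this scale understate changes of low genes. Single values were tested by an exact two-sided permutation test. Tables and plots were made with Python 3.11.15, pandas 2.3.3, numpy 2.4.6 and matplotlib 3.10.9. The fits were also run on simulated counts with the real means and the same spread for every gene and mouse. These held no outlying mice, so they do not show how the fits behave with the outlying libraries described here. The members and lists were chosen with earlier results of these data known.

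Every mouse is given for members with an adjusted p under 0.05, for the 5 with the smallest unadjusted p among those without overlap in a comparison, for the highest member of each subfamily and for a set of well-known genes, and of lists for up to 3 genes per comparison. Alternatives were other pseudocounts (0.1 and 8), no filter and a minimum mean of 50, quantile normalisation, centring of each mouse, fits of only 2 genotypes, robust variance, array weights, a replicate block, limma-voom on recovered reads and leaving out each mouse. The division of the heart members by their liver level was made, and Cyp2c23, Cyp2c37, Cyp2c55, Cyp2c70, Cyp3a13 and the rarer members were named, after the values were seen.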

Additional observations from a re-analysis of the deposited data

How the results depend on the processing

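The design holds 3 mice per genotype, and the shallow heart library of Mrps12ha/ha mouse 2 and the wild-type liver with high acute phase genes weigh on every fit. There were 204 alternative values for the counts of members called and the median log2 fold changes. Of these, 196 kept the count of calls or moved the median by less than 1 SD of the medians of single mice. The other 8 moved further, and a change of sign was not scored for these values. That SD is wide in hearts, 0.82, 1.02 and 1.15 for Mrps12ha/ha and Mrps12ep/ep against Mrps12+/+ and for the mutants, and 0.15, 0.22 and 0.10 in livers, so medians that moved by over 1.5 times are among the 196. With a minimum mean of 50 the median of Mrps12ep/ep against Mrps12+/+ hearts was -0.15 in place of -1.17, and with array weights that of the livers was 0.06 in place of 0.18. Without 1 mouse the medians in hearts ran from -0.99 to -0.00, from -2.03 to -0.50 and from 0.22 to 1.51, and those of the other liver comparisons from 0.10 to 0.38 and from 0.04 to 0.14. With array weights, 4 members were called in Mrps12ha/ha against Mrps12+/+ hearts and 5 against Mrps12ep/ep hearts, in place of 0, where 5573 and 6314 of all genes were called. Leaving out 1 mouse at a time gave 0 to 4 and 0 to 3 members in these comparisons, 0 to 2 in Mrps12ha/ha against Mrps12+/+ livers and 0 to 1 in Mrps12ep/ep against Mrps12+/+ livers. The counts above 0 came without Mrps12ha/ha mouse 2 in hearts and without Mrps12+/+ mouse 2 or mouse 3 in livers. The median of members in Mrps12ha/ha against Mrps12+/+ livers, 0.46, was 0.25 without a filter on low values, when 61 members entered, and 0.26 to 0.54 without 1 mouse. Of 2619 values for single named members, 19 came under 0.05, 0 called values were lost because none was called, and 139 had the opposite sign. The cause of these changes was not tested.

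Replicate numbers occur in every genotype. The deviations of same-numbered mice correlated at -0.231 to 0.578, not above 0.1 in every pair of any comparison, so the numbers were not taken as a pairing. With the replicate block, 0 members were called in all 6 comparisons and the median in Mrps12ha/ha against Mrps12+/+ livers stayed at 0.46; the block changed no call. The edgeR and DESeq2 tests on recovered reads were not run.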
